A study of Mus musculus with 4 samples.

Results

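Imprinted genes are expressed mainly or only from the copy inherited from one parent, and many of them act on fetal growth. Their copies are told apart by DNA methylation that is set in the germ line and kept in the cells of the embryo. The genes described here are Dlk1, Meg3, Mirg, Grb10, Peg3, Zim1, Mest, Snrpn and Gnas, all imprinted and all lying outside the cluster of imprinted genes at the distal end of mouse chromosome 7. These 9 genes were chosen by name from the 21495 genes of the table, and their UMIs (unique molecular identifiers, each marking 1 captured RNA molecule) were summed per sample and cell type. A level is given as CPM, the UMIs of a gene scaled to all UMIs of that cell type in that sample.

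The cells came from gonads of mouse embryos with the mesonephros attached, at the stage when the testis is first specified. The miRNA cluster miR-17~92 was deleted in the KO embryos. XY control embryos (E11.5) and XY KO embryos (the E11.5 KO and the E11.75 KO) were made by tetraploid complementation, in which the embryo itself forms from stem cells, here the XY line G4 from a hybrid of C57BL/6J and 129. In the KO, the cluster had been removed from both copies with CRISPR/Cas9 in picked clones of that line, so a clone and the deletion cannot be told apart. In the E11.75 KO, stage and deletion cannot be told apart either, since no XY control of that stage was included. XX control embryos (E11.5) were bred from C57BL/6J males and 129 females, and thus differ from the XY control in sex, in origin, in cell filtering and in depth per cell. The labels give the strain of the sample as C57BL/6 x 129S4/SvJae. Each of the 4 groups was 1 sample, a pool of 3 to 4 pairs of gonads, so no test between groups could be made. All intervals are 95% intervals for counting error only, and all 3 comparisons share the XY control.

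The samples held 23527 cells (XY control), 17057 (the E11.5 KO), 8492 (the E11.75 KO) and 3669 (XX control), with 37841392 to 105192238 UMIs per sample. The median cell held 3893 to 4763 UMIs in the XY samples and 15509 in the XX control. Of 34 marker genes of the deposited cell types, 25 were highest in their own type in the XY control. Libraries shared 1 to 40 cell barcodes. The E11.75 KO stood apart, with 5.64% of UMIs from mitochondrial genes against 3.20% to 4.52% elsewhere, 12001 CPM of Gm42418 (a gene overlapping ribosomal RNA) against 4254 to 5228, and 784 CPM of the nuclear RNA Kcnq1ot1 against 340 to 417. Malat1 was at 18960 CPM there, against 13230 to 15642 elsewhere. Their part in the results of that sample was not tested. Mir17hg, the host RNA of the deleted cluster, was at 19.8 and 18.2 CPM in the XY and XX controls and at 156 and 161 CPM in the KO samples at E11.5 and E11.75. Whether its counted 3′ end lies outside the deleted part was not examined, so this level was not used as a check of the deletion.

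The deleted cluster encodes miRNAs of 4 seed families. The seed, bases 2 to 8 of a miRNA, guides it to matching sites in the 3′ UTR of its target RNAs and is printed in capitals, from RefSeq on GRCm38.p6.
mmu-miR-17-5p: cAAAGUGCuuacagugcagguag
mmu-miR-18a-5p: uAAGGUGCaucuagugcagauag
mmu-miR-19a-3p: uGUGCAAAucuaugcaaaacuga
mmu-miR-92a-3p: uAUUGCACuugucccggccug
Shared seeds put mmu-miR-20a-5p in the family of miR-17 and mmu-miR-19b-3p in that of miR-19.

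The longest annotated 3′ UTR of each of the 7 protein-coding genes was searched on the transcript's strand for the reverse complement of each seed. An 8mer site pairs with bases 2 to 8 and has an A opposite base 1, whereas a 7-base site pairs with bases 2 to 8 alone or with bases 2 to 7 beside that A. An 8mer was found in 3 genes and any site in 5, with 10 sites in all, and none was found in Mest (1296 bases) or Snrpn (745 bases). Over 21153 genes with a 3′ UTR, 11.65% held an 8mer and 42.8% held any site. The UTRs with an 8mer spanned 2976 bases in Dlk1, 2955 in Grb10 and 5654 in Zim1. Shares over all genes were not matched for UTR length, so no excess of sites is read from them. The 8mers are shown because they are the longest matches to the deleted miRNAs among these genes, with the bases of the site in capitals and on the strand of the transcript.
Dlk1, miR-19 family: ccccaccaaggTTTGCACAggctttagtga
Grb10, miR-19 family: atcgccagcccTTTGCACAggcagctggga
Zim1, miR-92 family: ttggagcatttGTGCAATAtaaacaaacat
In mm10 the Dlk1 site lay at chr12:109461529-109461536 on the + strand, that of Grb10 at chr11:11931204-11931211 on the - strand and that of Zim1 at chr7:6676746-6676753 on the - strand. Grb10 held a second site of the miR-19 family and Zim1 4 further 7-base sites, while Peg3 held 1 of the miR-19 family. Gnas held 1 of the miR-17 family, in the annotated 3′ UTR (1444 bases) of 1 transcript of a locus with several. Whether it lies in the 3′ UTR or in the coding part of the transcript for the G protein was not examined. The counts of 5 genes and 10 sites include it. The 8mer of the miR-19 family shown for Dlk1 and Grb10 occurred in 5.54% of all genes with a 3′ UTR, and that of the miR-92 family in 2.32%. A match is a description of the sequence, and binding was not measured.

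A gene was read in a cell type where it held at least 100 UMIs over both samples compared. Its log2 ratio was set relative to the median log2 ratio of all genes read in that cell type, and it was counted as higher or lower where this relative log2 ratio was at least 1 or at most -1, a 2-fold difference. That median lay between -0.13 and 0.02 in the E11.5 KO, between 0.11 and 0.19 in the E11.75 KO and between -0.17 and -0.03 in the XX control. Pre-supporting cells are those from which Sertoli and granulosa cells later arise, and in them all 9 genes were read in each comparison. In the E11.5 KO, 1 of the 9 was higher and 0 lower, against 0.956% and 1.88% of all genes read in these cells. At E11.75 there were 0 in either direction, against 2% and 2.82% of all genes, and in the XX control also 0, against 0.664% and 1.16%. The median relative log2 ratio of the 9 genes was 0.11, 0.10 and 0.03, and by construction that of all genes is 0.

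Across cell types with at least 50 cells in both samples, 0 of the 9 genes were past 2-fold one way in 3 in 4 of their cell types in any comparison. Over all genes the shares higher and lower by this rule were 0.0109% and 0.0873% in the E11.5 KO, 0.17% and 0.25% in the E11.75 KO, and 0.0681% and 0.0907% in the XX control. Counting each gene in each cell type, the E11.5 KO had 1 of 95 pairs higher (1.05%) and 3 lower (3.16%), against 0.612% and 0.962% of all pairs of genes and cell types. The E11.75 KO had 4 of 91 higher (4.40%) and 2 lower (2.20%), against 1.59% and 2.15%. The XX control had 0 of 97 higher and 5 lower (5.15%), against 0.664% and 1.01%. Of the 10 lower pairs over the 3 comparisons, 7 were in immune cells, whose XY control cells stood apart in their markers and depth.

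**Figure D1:**
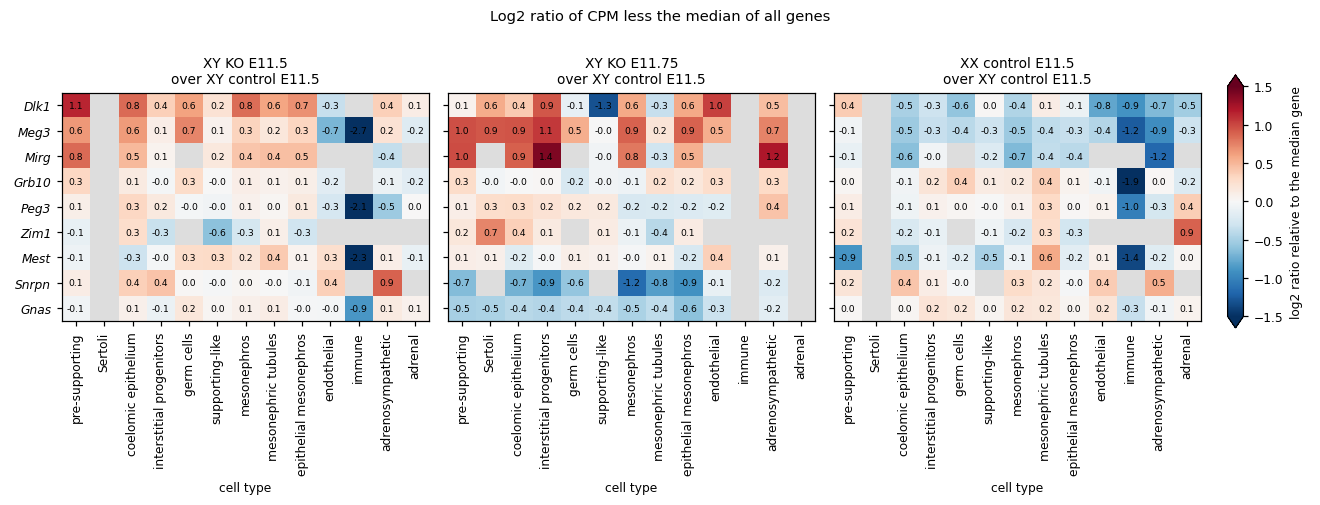
Relative log2 ratio (log2 ratio of CPM less the median over all genes read) of the 9 genes by cell type, 1 panel for each comparison with the XY control E11.5, with colour from lower to higher. In most cell types Dlk1 was on the higher side in the E11.5 KO, Meg3 and Mirg in the E11.75 KO, Snrpn and Gnas were on the lower side in the E11.75 KO, and Meg3 and Mirg on the lower side in the XX control.

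Dlk1, Meg3 and Mirg belong to one imprinted domain on chromosome 12. Dlk1 encodes a membrane protein of the Notch ligand family that keeps progenitors from differentiating and is expressed from the paternal copy. Meg3 and Mirg are long noncoding RNAs from the maternal copy, Mirg being a host of miRNAs. In mm10 Dlk1 spans chr12:109452823-109463336, Meg3 chr12:109541001-109571726 and Mirg chr12:109729764-109749460, all on the + strand. Reads of Meg3 can overlap Gm26906 on the opposite strand. The 3′ libraries do not tell the parental copies apart.

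Dlk1 in pre-supporting cells held 80.3 CPM for the XY control, 166 in the E11.5 KO, 95.7 in the E11.75 KO and 97.2 in the XX control. The E11.5 KO thus stood above the other 3 samples, which lay close together. The 2 technical runs of each sample, which share its cells' source, gave 75.9 and 85.2 CPM in the XY control and 161 and 171 CPM in the E11.5 KO. The difference between these samples was larger than that between runs. From 633 and 1003 UMIs, the relative log2 ratio was 1.14 (interval 0.998 to 1.29), at percentile 99.4 of the genes read in these cells. For the E11.75 KO it was 0.07 (-0.11 to 0.25). Sox9, a gene of the Sertoli lineage, was at 200 CPM in these cells of the XY control and at 20.1, 88.0 and 9.29 CPM in the E11.5 KO, the E11.75 KO and the XX control. In the order of XY control, the E11.5 KO, the E11.75 KO and XX control, Runx1 was at 196, 150, 226 and 237 CPM. Like Sox9 it was lower in the E11.5 KO, but it was not lower in the E11.75 KO or the XX control. Wnt4 was at 539, 712, 753 and 756 CPM and Amh at 1.40, 2.32, 1.74 and 0.29 CPM, in that order of samples. The 4 markers in sum, Sox9 included, were at 936, 884, 1069 and 1002 CPM. Markers of the coelomic epithelium, 3 genes in sum (Upk3b, Krt19 and Lhx9), were at 272 CPM in the XY control, 356 in the E11.5 KO, 430 in the E11.75 KO and 272 in the XX control. In the XY control only Lhx9 of these was highest in that epithelium, while Upk3b and Krt19 were highest in the epithelial mesonephros. In the XY control and the E11.5 KO, Dlk1 in the coelomic epithelium itself was at 369 and 618 CPM. The part of these genes in the difference was not tested. With Sertoli cells added to the pre-supporting cells, the relative log2 ratio of Dlk1 was 1.04 in the E11.5 KO.

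Dlk1 lay on the higher side in the E11.5 KO well beyond the pre-supporting cells. It was above the median gene in 10 of 11 cell types, with a median relative log2 ratio of 0.59 over them. Of all genes, 0.971% had a median above 0.5 in this comparison. In the coelomic epithelium it went from 369 to 618 CPM (0.85, interval 0.79 to 0.91) and in the mesonephros, the mesenchyme beside the gonad, from 388 to 650 CPM (0.84, 0.81 to 0.87). Markers of mesonephric mesenchyme (Osr1, Meox1 and Col1a1) in sum went from 742 to 957 CPM in the mesonephros. Most of this was Col1a1, from 710 to 923 CPM, and their part was not tested. The runs of Dlk1 in the mesonephros were at 393 and 383 CPM in the XY control and at 666 and 635 CPM in the E11.5 KO. In the 4 finer clusters of the mesonephros the values ranged from 0.68 to 0.90, so this difference was seen within each of them. Smaller differences were found in supporting-like cells (0.22) and the adrenal (0.11), both of which held high Dlk1 in the XY control. The endothelial cells were the exception, at -0.35 (-0.69 to -0.02). Over alternative settings the unscaled log2 ratio there went from -0.80 to -0.03. In these cells the markers of mesonephric mesenchyme in sum were at 56.2 CPM in the XY control and 36.5 in the E11.5 KO. The interstitial markers in sum were at 233 and 162 CPM, and the part of both was not tested.

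At E11.75 the pattern of Dlk1 was uneven. Above the median gene were 8 of 11 cell types, with interstitial progenitors at 513 CPM against 247 in the XY control (0.93, interval 0.81 to 1.04) and the mesonephros at 0.57. The finer clusters of the mesonephros were at 0.95, 0.71, 0.13 and 0.03, so at this stage the difference was not seen in each of them. In interstitial progenitors the markers of mesonephric mesenchyme in sum were at 497 CPM in the XY control and 881 in the E11.75 KO. The interstitial markers in sum were at 1399 and 2019 CPM, and the part of both was not tested. Of the interstitial markers, Pdgfra went from 322 to 753 CPM and Nr2f2 from 538 to 827, whereas Tcf21 went from 539 to 440. Supporting-like cells, a gonadal type marked by Pax8 that gives rise to the rete, stood on the other side for Dlk1. They held 1313 CPM in the XY control, 1440 in the E11.5 KO, 571 in the E11.75 KO and 1250 in the XX control, so the E11.75 KO was the low sample. The relative log2 ratio there was -1.31 (-1.46 to -1.16) from 174 KO cells. Pax8 was at 139, 88.9, 163 and 130 CPM in the same cells, in that order of samples, and the 3 markers of the type in sum at 181, 128, 198 and 165 CPM. Endothelial cells held 45.2 CPM in the XY control, 34.6 in the E11.5 KO, 103 in the E11.75 KO and 23.4 in the XX control. The value of the E11.75 KO was the highest, at 1.03 (0.69 to 1.35), but the 2 runs of the XY control were at 30.3 and 58.7 CPM, a gap of nearly that size. With the mean of CPM over cells the unscaled log2 ratio was 0.53 in place of 1.19, and with cells of 3000 to 30000 UMIs it was 1.58. The markers of mesonephric mesenchyme in sum were at 56.2 CPM in the endothelial cells of the XY control and 106 in those of the E11.75 KO, and their part was not tested.

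The XX control was on the lower side for Dlk1 in 9 of 12 cell types (median -0.46), with both signs of the unscaled log2 ratio over the alternatives in 5 of the 12. Lower values were found in the mesonephros at 261 CPM (-0.45, interval -0.49 to -0.41) and the coelomic epithelium at 243 CPM (-0.48, -0.58 to -0.39). Its pre-supporting cells were at 0.38 (0.22 to 0.54), but the unscaled log2 ratio went from 0.28 to -0.28 when each cell was thinned to 3000 UMIs, so no direction is given for them. The same held for its endothelial cells, where -0.94 became 0.30.

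Meg3 in pre-supporting cells held 164 CPM for the XY control, 242 in the E11.5 KO, 364 in the E11.75 KO and 147 in the XX control. Both KO samples were above both controls. The markers of the coelomic epithelium in these cells, given above, were also higher in both KO samples, and Meg3 in the coelomic epithelium itself had a mean of 700 CPM over the samples. Their part was not tested. The runs were at 153 and 177 CPM in the XY control, 217 and 265 in the E11.5 KO, and 123 and 170 in the XX control, and did not overlap between the KO and the XY control. The relative log2 ratio was 0.65 (interval 0.54 to 0.76) at E11.5 and 0.96 (0.86 to 1.07) at E11.75, both under the 2-fold limit. Without setting it relative to the median gene, the latter was 1.15. With Sertoli cells added, which in the XY control held 276 CPM of Meg3, the relative log2 ratios were 0.34 (0.25 to 0.43) and 0.81 (0.73 to 0.89).

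Over cell types, Meg3 in the E11.75 KO was above the median gene in 10 of 11, with a median of 0.88, in a comparison where 6.74% of all genes had a median above 0.5. That sample also stood apart in Gm42418, Kcnq1ot1, Malat1 and the mitochondrial share. Whether its level of Meg3 goes with stage, deletion or library cannot be told apart. The mesonephros held 1032 CPM in the XY control, 1214 in the E11.5 KO, 2109 in the E11.75 KO and 647 in the XX control, again in the order of XX control, XY control and the 2 KO samples. The markers of mesonephric mesenchyme in sum had that order too, at 504, 742, 957 and 1380 CPM. Most of this sum was Col1a1, at 467, 710, 923 and 1352 CPM. Osr1, at 27.8, 23.0, 24.0 and 25.1 CPM, and Meox1, at 9.75, 8.77, 10.2 and 3.04 CPM, did not have that order. Sums of these markers in other cell types are not split by gene here. Their part was not tested. Meg3 was past 2-fold in interstitial progenitors at E11.75, with 1695 CPM against 744 (1.06, interval 0.997 to 1.12). In these cells the markers of mesonephric mesenchyme in sum were at 497 CPM in the XY control and 881 in the E11.75 KO. The interstitial markers in sum were at 1399 and 2019 CPM, though Tcf21 among them went from 539 to 440 CPM. The part of both sums was not tested. For Meg3, supporting-like cells were level with the median gene (-0.00, -0.11 to 0.10), and mesonephric tubules were at 0.19 (0.11 to 0.28). The latter joined finer clusters on opposite sides, at 0.37, -1.09 and 1.07. In the E11.5 KO the values were smaller, with 9 of 12 cell types above the median gene and a median of 0.20, and the unscaled log2 ratio took both signs over the alternatives in 4 of the 12. Endothelial cells went the other way at E11.5, with 155 CPM against 256 (-0.69, -0.84 to -0.54), and were at 418 CPM at E11.75. In these cells the markers of mesonephric mesenchyme in sum were in the same order, at 36.5 CPM in the E11.5 KO, 56.2 in the XY control and 106 in the E11.75 KO, as were the interstitial markers at 162, 233 and 294 CPM. Their part was not tested. In the XX control, Meg3 was below the median gene in 12 of 12 cell types, from -0.05 to -1.25. Over the alternatives the unscaled log2 ratio took both signs in 2 of these, from -2.51 to 0.58 in germ cells and from -1.92 to 0.33 in immune cells.

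Mirg was at 7.74, 13.1, 17.4 and 6.64 CPM in pre-supporting cells for the XY control, the E11.5 KO, the E11.75 KO and the XX control. These values followed the order of those of Meg3, with wide intervals: 0.85 (0.35 to 1.36) at E11.5 and 0.98 (0.49 to 1.49) at E11.75. The coelomic epithelium, whose markers were higher in the pre-supporting cells of both KO samples, held a mean of 23.3 CPM of Mirg, and the part of such cells was not tested. Together with Sertoli cells, which held 15.7 CPM in the XY control, the pre-supporting cells were at 0.42 and 0.73. At E11.75 it was past 2-fold in interstitial progenitors, at 63.6 CPM against 22.1 (1.39, 1.04 to 1.76), and in adrenosympathetic cells, at 117 CPM against 46.5 (1.22, 0.69 to 1.71). Markers of mesonephric mesenchyme in sum went the same way, at 497 CPM in the interstitial progenitors of the XY control and 881 in those of the E11.75 KO. In the adrenosympathetic cells, 68 in the E11.75 KO, they were at 92.5 CPM in the XY control, 47.9 in the E11.5 KO, 273 in the E11.75 KO and 55.2 in the XX control, and the 3 interstitial markers at 214, 98.0, 309 and 156 CPM. Their part in the results for these cells was not tested. As for Meg3, stage, deletion and library cannot be told apart for Mirg in the E11.75 KO. In the XX control it was below the median gene in 8 of 8 cell types, though the unscaled log2 ratio took both signs over the alternatives in 2 of them, from -0.33 to 0.40 in interstitial progenitors and from -0.74 to 0.11 in supporting-like cells. It was past 2-fold in adrenosympathetic cells (-1.18, -1.81 to -0.62).

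**Figure D2:**
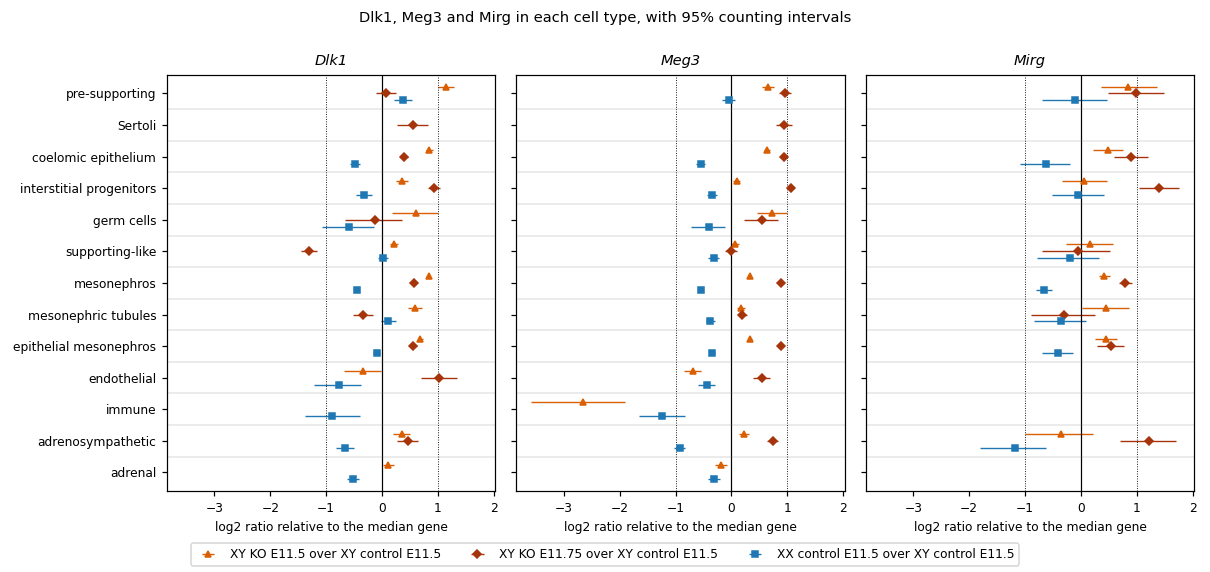
Relative log2 ratio of Dlk1, Meg3 and Mirg by cell type, with bars for the 95% counting interval. Each comparison with the XY control E11.5 has its own marker. For Dlk1 the supporting-like cells of the E11.75 KO sit at -1.31, and for Meg3 the interstitial progenitors of that sample sit at 1.06.

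Mirg holds 26 mature miRNAs from 14 hairpins and Meg3 3 from 2 hairpins. A few of them are shown, all on the + strand of chromosome 12, because they are the products for which Mirg is known, with their seeds in capitals. These libraries capture polyadenylated RNA at its 3′ end and do not measure mature miRNAs.
mmu-miR-134-5p: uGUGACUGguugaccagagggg
mmu-miR-382-5p: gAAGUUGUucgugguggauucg
mmu-miR-154-5p: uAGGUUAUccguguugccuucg
mmu-miR-410-3p: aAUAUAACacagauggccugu
mmu-miR-453: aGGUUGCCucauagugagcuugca
mmu-miR-496a-5p: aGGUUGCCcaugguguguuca
The last 2 share a seed, so the 26 miRNAs carry 25 seeds. From Dlk1 to the end of Mirg, 112 mature miRNAs are annotated, and 0 carry a seed of miR-17~92.

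Other genes in and near the domain held few UMIs and were read over all cells of a sample. B830012L14Rik, a noncoding RNA gene between Meg3 and Mirg, held 5.98 CPM in the XY control, 7.75 in the E11.5 KO, 16.7 in the E11.75 KO and 5.40 in the XX control. Begain was at 2.88, 3.01, 6.13 and 2.001 CPM, and Rtl1, a retrotransposon-derived gene expressed from the paternal copy, at 1.16, 1.58, 2.70 and 1.21 CPM in the same order. Dio3, at the far end of the domain, was at 0.39, 0.32, 0.95 and 0.53 CPM, from 29 to 41 UMIs per sample. In each of these, the E11.75 KO was the highest sample. Of the 18 genes within 1 Mb of the span from Dlk1 to Mirg, 13 were read in the mesonephros, and their median relative log2 ratio was 0.01 in the E11.5 KO, -0.09 in the E11.75 KO and -0.04 in the XX control. In pre-supporting cells 8 were read, with medians of -0.04, 0.19 and -0.08 in the same order. The medians of whole chromosomes lay between -0.06 and 0.08.

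Over all cells of a sample, the domain gave Dlk1 345, 617, 509 and 260 CPM, Meg3 758, 1018, 1502 and 512 CPM, and Mirg 25.3, 35.3, 47.1 and 15.7 CPM, in the order of XY control, the E11.5 KO, the E11.75 KO and XX control. The relative log2 ratios in the E11.5 KO were 0.94 (interval 0.92 to 0.96) for Dlk1, 0.53 for Meg3 and 0.59 for Mirg. In the E11.75 KO they were 0.40, 0.82 and 0.73. Dlk1 was thus the most raised of the 3 at E11.5 and the least raised at E11.75, a difference that could not be tested with 1 sample per group and that also carries the mix of cell types.

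Peg3 and Zim1 lie side by side on the proximal part of chromosome 7, Peg3 at chr7:6703892-6730431 and Zim1 at chr7:6671269-6696450, both on the - strand. Both encode zinc finger proteins, Peg3 from the paternal and Zim1 from the maternal copy. Peg3 was at 2130, 2125, 2588 and 2141 CPM in pre-supporting cells for the XY control, the E11.5 KO, the E11.75 KO and the XX control. The relative log2 ratios were 0.09 (interval 0.06 to 0.12), 0.10 (0.06 to 0.13) and 0.11 (0.08 to 0.15), so Peg3 moved little against the median gene in any sample. With Sertoli cells added they were 0.26, 0.19 and 0.28. The values of Peg3 farthest from 0 were in immune cells, at -2.12 in the E11.5 KO and -1.02 in the XX control. Adrenosympathetic cells were at 494 CPM in the XY control, 325 in the E11.5 KO (-0.55, -0.74 to -0.36) and 724 in the E11.75 KO (0.42, 0.23 to 0.60). The 2 KO samples lay on opposite sides of the XY control there. The runs were at 418 and 576 CPM in the XY control and at 390 and 260 CPM in the E11.5 KO. They did not overlap, but the lower run of the XY control and the higher run of the E11.5 KO lay close together. The markers of mesonephric mesenchyme and of interstitial cells in adrenosympathetic cells, as above, had the same order over these 3 samples. Over the alternatives the unscaled log2 ratio went from -1.14 to -0.10 at E11.5 and from 0.02 to 0.79 at E11.75.

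Zim1, with an 8mer of the miR-92 family, was at 126 CPM in pre-supporting cells for the XY control, 109 in the E11.5 KO, 160 in the E11.75 KO and 134 in the XX control. The relative log2 ratio was -0.11 (interval -0.26 to 0.03) at E11.5 and 0.17 (0.03 to 0.30) at E11.75, and with Sertoli cells added 0.10 and 0.33. In the E11.5 KO it was below the median gene in 5 of the 7 cell types read, lowest in supporting-like cells at 127 CPM against 208 (-0.62, -0.83 to -0.41). The Sertoli cells of the E11.75 KO held 148 CPM against 81.1 in the XY control (0.73, 0.44 to 1.01). Pre-supporting cells of the XY control held more Zim1 (126 CPM) than its Sertoli cells. The Sertoli cells of the XY control and the E11.75 KO differed in their own markers, with Sox9 at 944 and 790 CPM, Amh at 72.0 and 34.1, Wnt4 at 99.7 and 371, and Runx1 at 134 and 176. Their part was not tested.

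Grb10 encodes an adaptor of the insulin and IGF1 receptors that restrains growth, and in most tissues it is expressed from the maternal copy. It spans chr11:11930508-12038683 on the - strand and holds 2 sites of the miR-19 family. In pre-supporting cells it held 151 CPM in the XY control, 176 in the E11.5 KO, 208 in the E11.75 KO and 143 in the XX control. Both KO samples were above the controls, with relative log2 ratios of 0.31 (interval 0.19 to 0.43) and 0.27 (0.15 to 0.40). With Sertoli cells added these were 0.18 (0.07 to 0.29) and 0.14 (0.03 to 0.24). The markers of the coelomic epithelium were also higher in the pre-supporting cells of both KO samples. That epithelium held a mean of 286 CPM of Grb10, and the part of such cells was not tested. The median of Grb10 over cell types was 0.07, 0.02 and 0.04 in the 3 comparisons. The values ranged from -0.17 to 0.31 in the E11.5 KO, from -0.24 in germ cells to 0.30 in adrenosympathetic cells in the E11.75 KO, and from -1.89 in immune cells to 0.37 in mesonephric tubules in the XX control. In the mesonephros the 4 samples lay between 389 and 409 CPM.

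Mest, from the paternal copy, encodes a membrane protein of the endoplasmic reticulum with an alpha/beta hydrolase fold, and hosts miR-335 in an intron.
mmu-miR-335-5p: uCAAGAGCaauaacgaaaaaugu
Mest spans chr6:30723547-30748465 on the + strand and overlaps Copg2 on the opposite strand at its end. In pre-supporting cells it held 906 CPM in the XY control, 807 in the E11.5 KO, 1101 in the E11.75 KO and 454 in the XX control. The XX control was the low sample, at a relative log2 ratio of -0.89 (interval -0.95 to -0.83), while the KO samples were at -0.07 and 0.10. With Sertoli cells added these 3 values were -0.69, 0.12 and 0.18. Not every cell type of the XX control was on the lower side, and mesonephric tubules were at 443 CPM against 337 (0.56, 0.49 to 0.64). The coelomic epithelium was at 624 CPM in the XX control against 944 (-0.47) and at 709 CPM in the E11.5 KO (-0.31, -0.35 to -0.26).

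Snrpn, expressed from the paternal copy, encodes the spliceosomal protein SmN. It spans chr7:59982495-60140219 on the - strand and shares exons with Snurf, whose reads cannot be told apart from its own. Snrpn was sparse, at 21.2 CPM in pre-supporting cells for the XY control, 21.4 in the E11.5 KO, 15.3 in the E11.75 KO and 22.6 in the XX control. The E11.75 KO was the low sample in most cell types, below the median gene in 9 of 9 with a median of -0.71, although the unscaled log2 ratio took both signs over the alternatives in 2 of them. A median below -0.5 was found for 13.5% of all genes in this comparison. Past 2-fold was the mesonephros, at 22.3 CPM in the XY control, 21.3 in the E11.5 KO, 11.05 in the E11.75 KO and 24.8 in the XX control (-1.16 for E11.75, interval -1.41 to -0.92). Pre-supporting cells were at -0.65 (-1.08 to -0.25) and germ cells at -0.58 (-0.90 to -0.28). The E11.5 KO was at 0.03 (-0.10 to 0.16) in the mesonephros and at 0.88 (0.44 to 1.32) in adrenosympathetic cells, where it held 82.4 CPM against 46.5. Since the E11.75 KO also stood apart in Gm42418, Kcnq1ot1 and the mitochondrial share, whether the level of Snrpn goes with stage, deletion or library cannot be told apart.

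Gnas encodes the alpha subunit of the stimulatory G protein that couples receptors to cAMP, and its locus also gives other transcripts with their own imprints. It spans chr2:174284320-174346744 on the + strand, with Nespas on the opposite strand, and the 3′ counts join its isoforms. In pre-supporting cells it held 1180 CPM in the XY control, 1065 in the E11.5 KO, 954 in the E11.75 KO and 1114 in the XX control. Like Snrpn it was on the lower side in the E11.75 KO, below the median gene in 11 of 11 cell types, from -0.16 to -0.62, with both signs of the unscaled log2 ratio over the alternatives in 1. In the E11.5 KO and the XX control its median over cell types was 0.04 and 0.05.

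**Figure D3:**
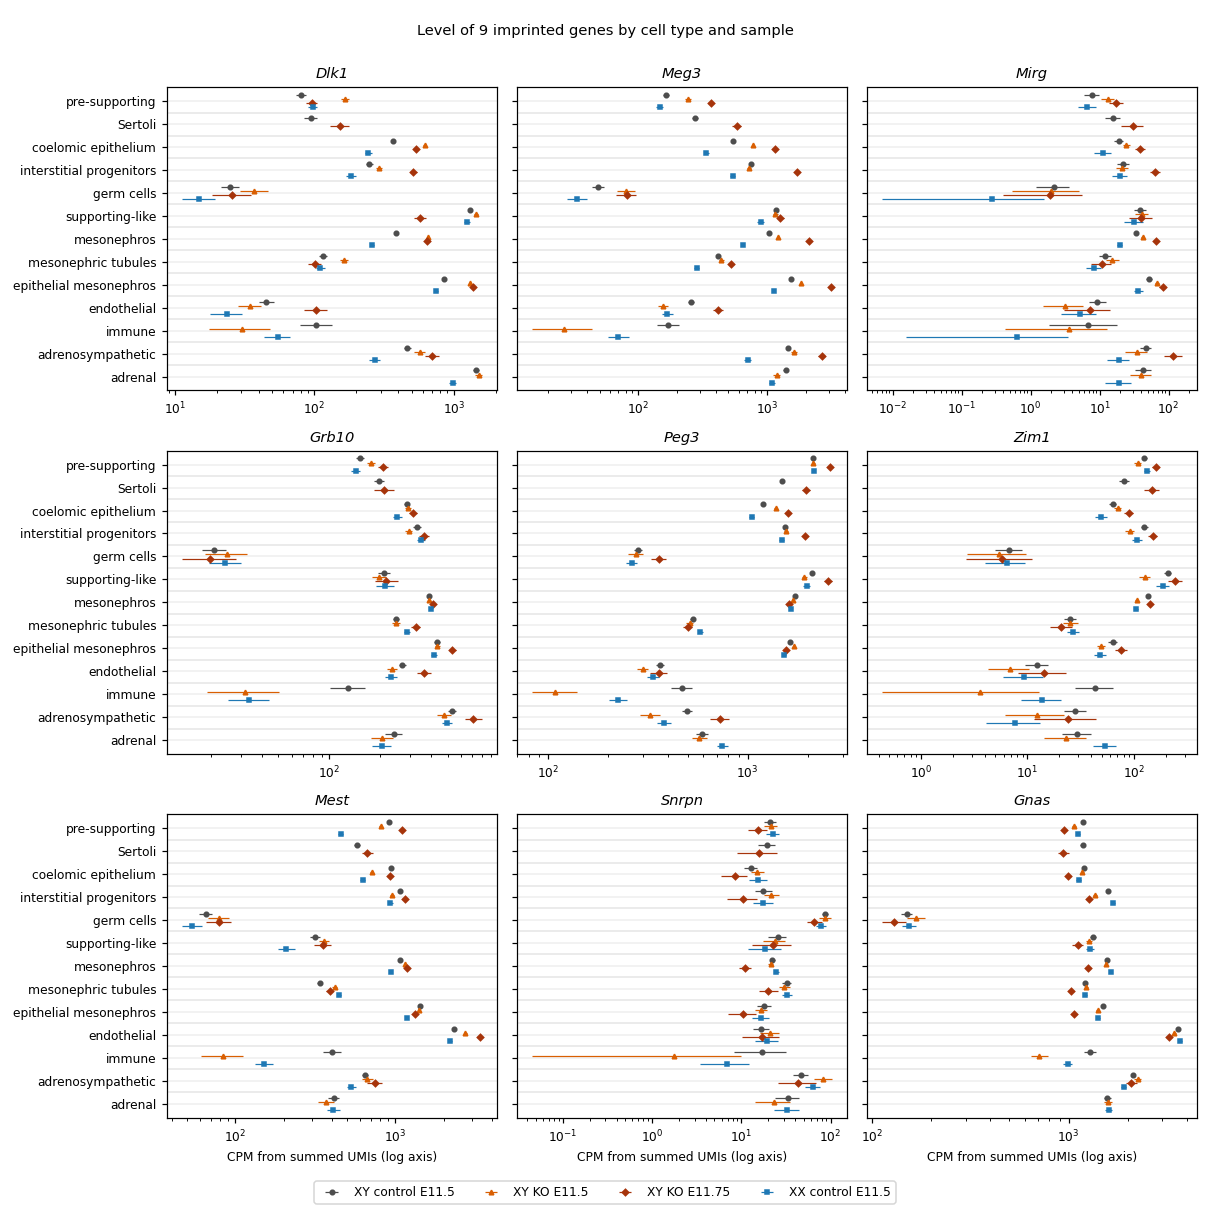
Level in CPM of each of the 9 genes by cell type and sample, with 1 panel for each gene and the order of cell types fixed across panels. Endothelial cells are highest for Mest and Gnas, pre-supporting and supporting-like cells for Peg3, and germ cells are lowest for 7 of the 9 genes.

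The order of cell types differed between the genes. Levels here are means over the samples with at least 50 cells of the type, and neighbours in the order are called separate only where the ranges of the samples did not meet. Dlk1 was highest in the adrenal (1312 CPM, range 985 to 1508), supporting-like cells (1144, 571 to 1440) and epithelial mesonephros (1070, 742 to 1380), whose ranges met. Adrenal and epithelial mesonephros were apart from the next type, adrenosympathetic cells (501, 271 to 700), whereas supporting-like cells were not, through the low value of the E11.75 KO. Lowest were germ cells, with 25.6 CPM (15.0 to 37.1). Meg3 was highest in epithelial mesonephros (1908 CPM, 1130 to 3117), followed by adrenosympathetic cells (1606) and the mesonephros (1251), and lowest in germ cells (60.8, 33.5 to 80.9). For Meg3 every pair of neighbours in the order had ranges that met. Mirg had the same cell type at the top and the same at the bottom, at 59.7 and 1.58 CPM.

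Peg3 was highest in pre-supporting cells (2246 CPM, 2125 to 2588) and supporting-like cells (2132, 1920 to 2524), with ranges that met, and lowest in immune cells (267) and germ cells (295). Zim1 had the same 2 cell types on top in the other order, supporting-like cells at 192 CPM (127 to 244) and pre-supporting cells at 132 (109 to 160). Grb10 was highest in adrenosympathetic cells (552 CPM, 477 to 709) and lowest in germ cells (22.5, 19.9 to 24.9), the latter apart from all other types. Mest and Gnas were highest in endothelial cells, Mest at 2657 CPM (2203 to 3358) and Gnas at 3507 CPM (3245 to 3696), both apart from the next cell type. Gnas was at 150 CPM in germ cells. Snrpn was the only one of the 9 with germ cells on top, at 79.6 CPM (66.1 to 87.0), next to adrenosympathetic cells at 58.7 (43.1 to 82.4), whose ranges met. These 2 types were apart from the third in the order, the adrenal, at 29.6 CPM.

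The share of cells with at least 1 UMI was taken after thinning each cell to 3000 UMIs, since depth differed between samples. In pre-supporting cells, Dlk1 was found in 16.6% (interval 14.8% to 18.6%) of XY control cells, 31.3% (28.4% to 34.2%) of cells of the E11.5 KO, 22.5% (19.7% to 25.5%) of cells of the E11.75 KO and 13.2% (9.81% to 17.2%) of XX control cells. Not thinned, these shares were 23.5%, 42.5%, 33.5% and 44.6%. The thinned shares of germ cells, where Dlk1 was lowest, were 6.12%, 13.3%, 9.93% and 2.38%, and were taken as the background that free RNA can give. Germ cells were deeper, with medians of 9280 to 40644 UMIs per cell against 4522 to 17499 in pre-supporting cells. In both types the KO sample of E11.5 had the highest thinned share. In supporting-like cells the thinned share of Dlk1 was 82.8%, 89.3%, 56.7% (48.1% to 65.0%) and 80.2%, and not thinned 85.7%, 93.0%, 71.3% and 88.6%, with the E11.75 KO the lowest both ways.

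Meg3 was found in 30.7%, 43.0%, 55.7% and 20.3% of thinned pre-supporting cells for the XY control, the E11.5 KO, the E11.75 KO and the XX control, and in 40.2%, 57.7%, 69.0% and 62.2% when not thinned. In germ cells the thinned shares were 9.17%, 10.1%, 15.2% and 8.33%. The order of the thinned shares in pre-supporting cells was that of the CPM. Mest in the XX control was found in 63.9% (58.6% to 68.9%) of thinned pre-supporting cells against 80.0% (77.9% to 82.1%) in the XY control, and in 90.3% against 86.2% when not thinned. In germ cells, where Mest was lowest, the thinned shares were 11.9% and 16.9% in these samples.

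Technical runs gave the spread that the measurement itself can produce. Over 263 pairs of gene, cell type and sample with 2 runs, the median size of the log2 ratio between runs was 0.10 and the largest 2.36. The largest was Meg3 in germ cells of the XX control, at 11.6 and 60.4 CPM. In germ cells of the E11.5 KO Meg3 was at 51.6 and 114 CPM in the 2 runs, against 54.9 and 40.5 in the XY control, so its relative log2 ratio of 0.73 there rested on the second run. For Dlk1 and Meg3 in pre-supporting cells and the mesonephros, the differences between the E11.5 KO and the XY control were larger than the differences between runs. Runs share the source of their cells, so the spread between pools of embryos is not known from them.

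**Figure D4:**
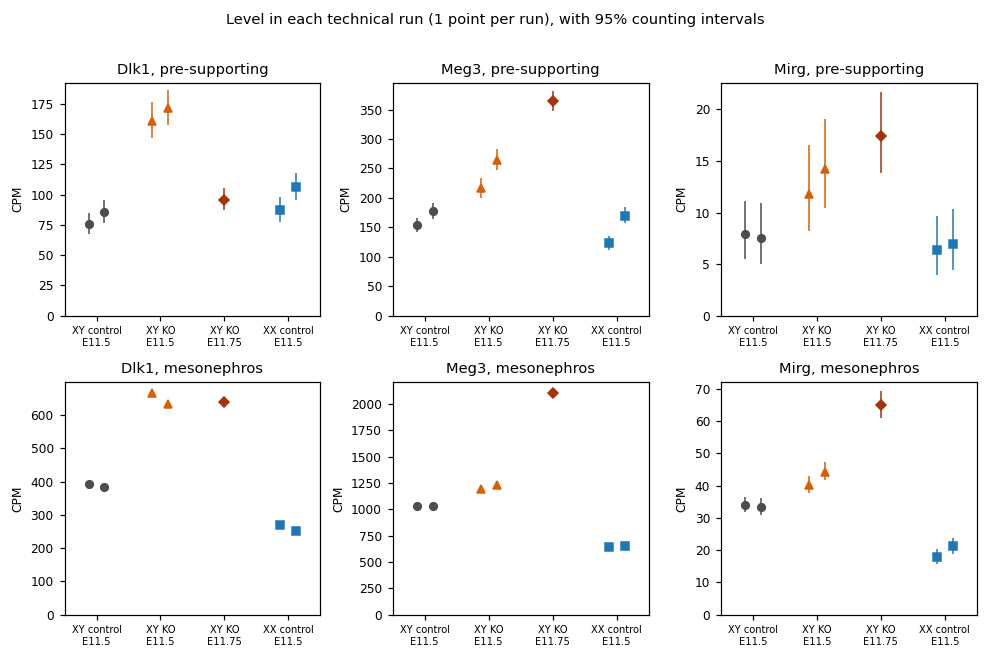
Level in CPM of Dlk1, Meg3 and Mirg in each technical run of each sample, in pre-supporting cells and the mesonephros. The E11.75 KO has 1 run. For Dlk1 and Meg3 the runs lie close together in the mesonephros. In pre-supporting cells those of Meg3 lie further apart (123 and 170 CPM in the XX control).

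Immune cells, 220 in the XY control, 73 in the E11.5 KO and 74 in the XX control, accounted for most of the lower pairs. Meg3 was at 170 CPM in those of the XY control and 26.7 CPM in the E11.5 KO (-2.65, interval -3.58 to -1.90), and Peg3 and Mest were also lower there. In the XX control Meg3, Grb10, Peg3 and Mest were lower in immune cells. The immune cells of the XY control stood apart in other ways. Their 3 immune markers, Ptprc, Fcer1g and C1qa, summed to 519 CPM, against 1886 in the E11.5 KO, 1721 in the E11.75 KO and 1911 in the XX control. Markers of mesonephric mesenchyme, 3 genes in sum, were at 158 CPM there against 42.7, 118 and 54.4. The median immune cell held 1488 UMIs in the XY control and 7040 in the E11.5 KO. Meg3 was at 47.5 CPM in the first run of the XY control and 264 CPM in the second. With immune cells of 3000 to 30000 UMIs only, the unscaled log2 ratio of Meg3 in the E11.5 KO went from -2.63 to -1.61. The part of markers and depth in the lower values was not tested.

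Further imprinted genes of the same domains and of other chromosomes outside distal chromosome 7 were listed, 43 in all, of which 36 were in the table. In pre-supporting cells 21 of them were read in each comparison, and 1 was past 2-fold, lower in the E11.75 KO, where 2.82% of all genes were. By the rule of 3 in 4 cell types, 0 of 19, 18 and 19 were past 2-fold in the 3 comparisons, with medians of 0.01, -0.06 and 0.05. Of the 18 in the E11.75 KO, 2 had a median over cell types above 0.5 and 3 below -0.5, a limit set after the values were seen, against 6.74% and 13.5% of all genes there. In the E11.5 KO 0 of 19 were beyond it, against 0.971% of all genes above and 0.862% below, and in the XX control 0 of 19, against 1.16% and 3.26%. In the E11.75 KO, Mcts2 was at -1.04 and past 2-fold in 6 of 11 cell types, Asb4 at -0.85 and past 2-fold in 4 of 10, and Commd1 at -0.72 with 0 of 11 above the median gene. In the same sample, Igf2r was at 0.54, above the median gene in 11 of 11, and Sgce at 0.50, above it in 10 of 10. Among the neighbours of the 9 genes, Usp29, which lies beside Peg3, had medians over cell types of 0.10, -0.09 and 0.11 in the E11.5 KO, the E11.75 KO and the XX control. Ndn and Ube3a, of the domain of Snrpn, were at -0.26 and 0.15 in the E11.75 KO, where Snrpn was at -0.71.

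Likeness between genes was measured as Pearson's r of log2(CPM + 10) over 48 points of cell type and sample, which share libraries and depth, and is given as a description. The ranking was made among 11848 other genes, with the 9 genes themselves left out. In it Peg3 was most like Usp29 (r = 0.97), Mirg most like B830012L14Rik (0.898) and Dlk1 most like Gm26906 (0.899), all from the same domains. Meg3 was most like Clip3 (0.914), Grb10 like Dbn1 (0.966), Zim1 like Igdcc4 (0.938), Mest like Ppic (0.909), Snrpn like Slc25a33 (0.866) and Gnas like Cd81 (0.905). Between the 9 genes, r was 0.950 for Peg3 and Zim1, 0.941 for Meg3 and Mirg, and 0.907 for Dlk1 and Meg3. Dlk1, Meg3, Mirg and Zim1 were thus each more like another of the 9 than like the gene named above. Snrpn had a negative r with each of the other 8.

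The promoters of these genes were looked at for the hexamer TGCCGC, bound when methylated by ZFP57, which protects imprints. Of 19 RefSeq promoters of the 9 genes, each of 300 bases (250 before and 50 after the start, GRCm38.p6), 6 from 5 genes held it on either strand, against 11.6% of 32851 promoters of all genes. Among them were the Mest promoters at chr6:30737800-30738099 and chr6:30737803-30738102, which overlap and share a match. The median number of CpG was 13 against 7. The hexamer itself holds a CpG, the share over all genes was not matched for CpG, and overlapping promoters were counted apart. No excess is therefore read from these shares. A stretch around the match in the Meg3 promoter at chr12:109540746-109541045 on the + strand is shown, with the hexamer, here as its reverse complement, in capitals.
Meg3 promoter: gccaggggcactGCGGCAgatttttttttc
DNA methylation and binding were not measured here, so the match says nothing on the imprint in these cells.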

How the data were processed

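Gonads with mesonephros were dissociated, fixed in methanol and profiled with 10x Genomics 3′ chemistry, in 2 technical runs for each sample and 1 for the E11.75 KO. The deposited table gives UMI counts that were not normalized, which the authors made with Cell Ranger 6.1.1 against mm10 with an added exon of Sry. The deposited annotation names the sample and type of each cell, with percent values that the authors computed for mitochondrial and globin UMIs. The authors removed XY cells by limits on these percent values, on UMIs and on genes, removed XX cells by cluster, removed doublets with DoubletFinder, and clustered with Seurat. The limits kept deep cells in the XX sample only, where a cell held up to 154650 UMIs, against 29875 in XY cells. The study's methods list the cell numbers of the KO samples in the opposite order to the labels, which were followed here, as the single run of the E11.75 KO also has it.

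Within each sample, UMIs of the cells of a deposited type were added up (Python 3.11.15, pandas 2.3.3, numpy 2.4.6), with no further removal of cells, and given as CPM with exact Poisson intervals. Shares of cells carry exact Clopper-Pearson intervals. Log2 ratios used a prior count of 0.5 and an exact interval from the binomial split of the counts (scipy 1.17.1). With 1 sample per group, no test was made. The calling of 2-fold differences was tried on simulated counts with changes well past that limit and counting error alone. It thus says nothing on calls near the limit or on the spread between pools of embryos. The 9 genes were all named by rule, and further imprinted genes where past 2-fold in most cell types (0 by the rule of 3 in 4). Genes alike were the 2 of highest r outside the 9, of which the first is given. Neighbouring genes and all further imprinted genes given by name were chosen after their values were seen. The 9 genes, the other lists and the limits were chosen with earlier results of these data known. Positions and 3′ UTRs are from GENCODE M21 on mm10. Alternatives included TMM factors (edgeR 4.0.16), other totals, single runs, limits on depth, thinning, prior counts and folds.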

Additional observations from a re-analysis of the deposited data

Results flagged for a closer look

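Within the E11.75 KO, Dlk1 lay on opposite sides of the XY control in different cell types. The relative log2 ratio was -1.31 in supporting-like cells, from 1313 to 571 CPM, and 1.03 in endothelial cells, from 45.2 to 103 CPM. The difference between these cell types was not tested, since each group was 1 sample. In supporting-like cells the unscaled log2 ratio was -1.23 against the first run and -1.17 against the second run of the XY control, whereas in endothelial cells it was 1.76 and 0.81.

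Within the E11.5 KO, Meg3 was at a relative log2 ratio of -2.65 in immune cells and 0.73 in germ cells, again with no test of the difference. The immune cells of the XY control had low immune markers, as given above, and the KO cells held 15 UMIs of Meg3. The part of the markers in this value was not tested. Against single runs, with the first run of both samples and then the second, the unscaled log2 ratio in immune cells was -1.07 and -3.01, and in germ cells -0.08 and 1.49.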

How the results depend on the processing

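No paired analysis was possible because each group was 1 sample. In pre-supporting cells, 1 gene was higher in the E11.5 KO, with 3 at a 1.5-fold limit and 0 at a 3-fold limit. In the E11.75 KO 0 were higher, but 2 with the mean of CPM over cells, 2 at the 1.5-fold limit, 2 without setting the ratio relative to the median gene, and 1 each with the first run only, the second run only, cells thinned to 3000 UMIs and a minimum of 500 UMIs. There 0 were lower, but 1 at the 1.5-fold limit. In the XX control 0 were lower, but 1 with the second run only and 1 at the 1.5-fold limit. No other count of genes past 2-fold moved, and over most cell types every count stayed at 0. The shares of all genes at these other settings are not given. The counts thus describe how the rule moves with the setting and are no result about these genes. Of the 27 shares of pre-supporting cells with a UMI in the KO samples and the XX control, 9 had an interval apart from that of the XY control after thinning to 3000 UMIs, 12 after thinning to 2000, 11 after thinning to 5000 and 19 when not thinned. The same counts over all genes are not given, so they are no result about these genes. Among single ratios, Meg3 in immune cells of the XX control went from -1.28 to 0.33 on the log2 scale with the first run only, the 1 reversal among called values. With TMM factors 235 of 283 ratios kept their sign, and with thinning 253. Low counts limited Mirg, Zim1 and Snrpn, of which Mirg was read in 8 cell types per comparison, Zim1 in 7 or 8 and Snrpn in 9 or 10. The cause of these moves was not tested.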
